A study of Mus musculus with 6 samples.

Results

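The genes described here make, recycle and use glutathione, or bind it as LanC-like proteins, in mouse Neuro2A cells after an siRNA against circCpsf6. They are Lancl1, Lancl2, Gsr, Gclc, Gclm, Gss, Gpx1, Gpx4, Gstp1 and Glrx, 10 of 55385 genes in the deposited table, each matched by its symbol. They were chosen as enzymes of this pathway and also because Lancl1 and Gsr were known to be low in the si-circCpsf6 libraries, so the values of those 2 genes are a description and carry no test. Neuro2A (N2A) is a neuroblastoma line, labelled as neuroblasts. Cells were transfected at 100 nM with si-circCpsf6 (n = 3), directed at a circular RNA made from the gene Cpsf6, or with si-NC (n = 3), whose name the labels do not spell out. All 6 libraries come from the 1 cell line, and the labels name a single siRNA for circCpsf6, so no second siRNA or line is set beside it.

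Glutathione is the main thiol antioxidant inside cells. Glutamate-cysteine ligase joins glutamate to cysteine, which sets the pace of synthesis, and glutathione synthetase then adds glycine. Peroxidases, transferases and glutaredoxins spend glutathione on peroxides, on electrophiles and on oxidised protein thiols, and glutathione reductase uses NADPH to turn the oxidised form back into the reduced one. The LanC-like proteins bind glutathione, and in mice Lancl1 has been described as a protein that shields neurons from oxidative stress.

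Values are FPKM, a level per transcript length and per library size, so that levels of different genes can be set beside each other. FPKM were deposited without read counts, and the depth behind a value is not known. Between 12860 and 13080 genes reached 1 FPKM in the si-circCpsf6 libraries, against 12671 to 13024 in the si-NC libraries. The host gene Cpsf6 read 10.65, 15.06 and 14.5 FPKM in si-circCpsf6, against 14.09, 14.5 and 15.2 FPKM in si-NC. With 1 value per gene, circle and linear mRNA cannot be told apart, and whether the libraries captured the circle is not known. The knockdown itself is not measured here. Of 15 markers of sympathoadrenal neuroblasts, 12 had a mean of at least 1 FPKM, and their summed level was 759 to 849 FPKM in si-circCpsf6 and 1008 to 1215 FPKM in si-NC. Of these 12, 5 had a difference above 0 and 7 below, and the granule protein gene Chga alone was called, lower in si-circCpsf6 (limma adjusted p = 0.0335). Of 26 markers of fibroblasts, macrophages, endothelium and glia, 3 were expressed enough to be tested and none was called. Endothelial markers summed to 1.59 to 3.19 FPKM in si-circCpsf6 and to 0.87 to 1.24 FPKM in si-NC, mostly from Tek and Pecam1, while Cdh5 and Kdr were at 0.1 FPKM or below. The part of these shifts in the results was not tested.

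Lancl1, the glutathione-binding LanC-like protein most studied in neurons, was the member with the widest relative gap between the groups. It read 0.95, 1.04 and 1.1 FPKM in the si-circCpsf6 libraries and 5.42, 5.64 and 5.86 FPKM in the si-NC libraries. Its mean in si-circCpsf6 was thus 18.3% of that in si-NC, and the libraries of each group lay close together, with an SD of 0.05 on the log2 scale in both. On log2(FPKM + 1) the difference was -1.71 (SE 0.13), where a positive value means higher in si-circCpsf6. The scale matters for a gene near 1 FPKM: with 0.1 added in place of 1 the difference was -2.35, and the authors' deposited table gives -2.46. In a bulk sample, fewer cells that express a gene and less RNA per cell cannot be told apart.

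Gsr encodes glutathione reductase, the enzyme that regenerates reduced glutathione from its disulfide. Its level was 6.93, 11.99 and 10.77 FPKM in si-circCpsf6, against 31.53, 36.95 and 31.03 FPKM in si-NC. The mean in si-circCpsf6 was 29.8% of the si-NC mean, and the highest si-circCpsf6 library lay well under the lowest si-NC one. The difference on the log2(FPKM + 1) scale was -1.68 (SE 0.2), and the authors' deposited table gives -1.74. The small nucleolar RNA gene Gm24727 lies within Gsr on the same strand and read at most 1.02 FPKM.

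**Figure D1:**
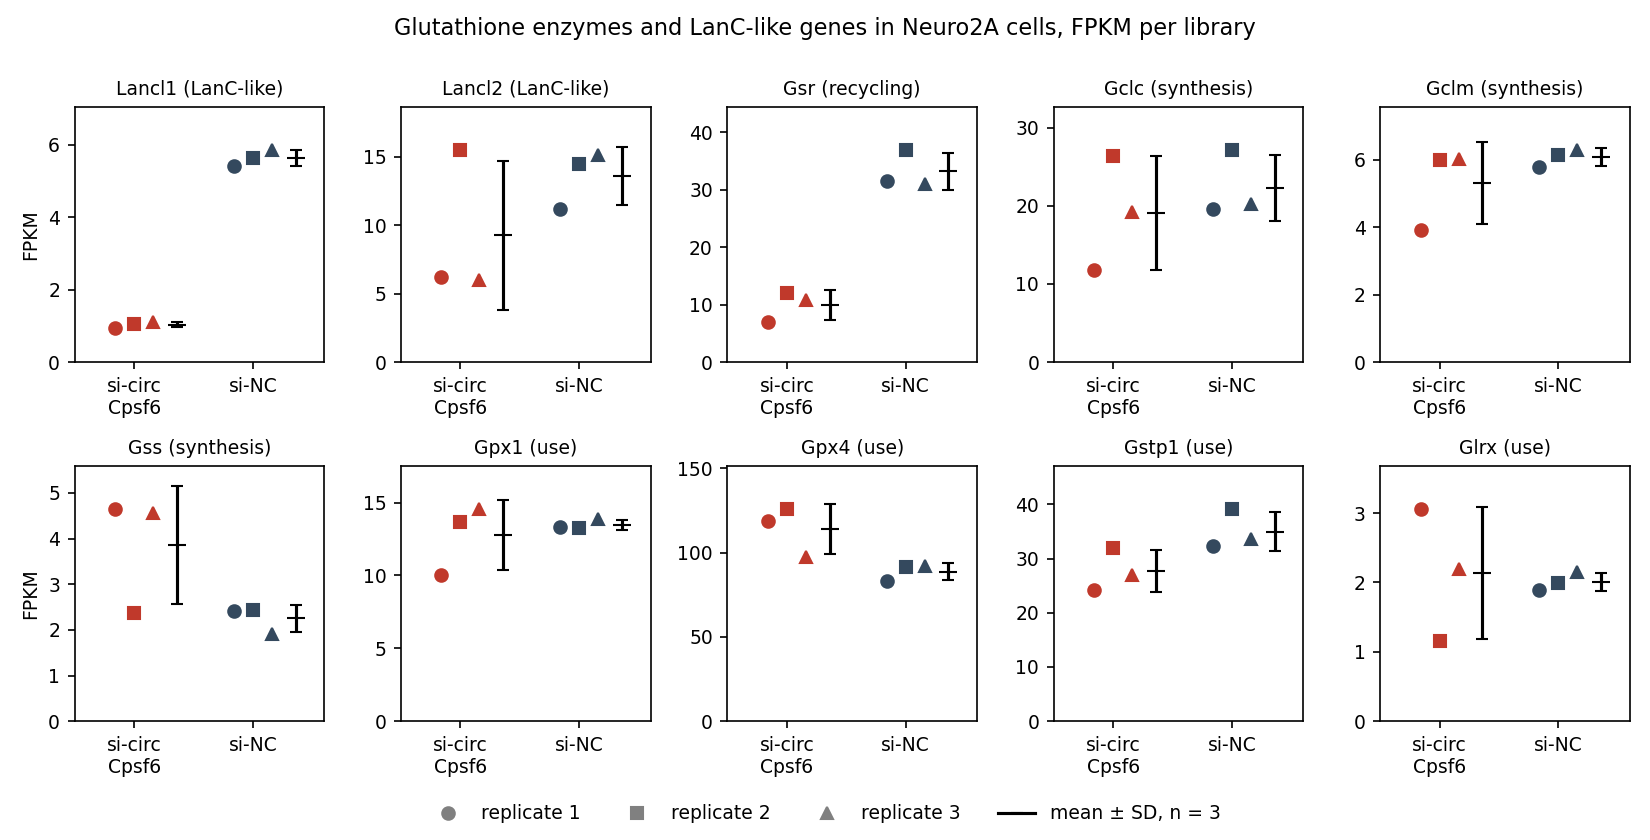
FPKM of each of the 10 genes (y axis, from 0, with its own scale per panel) in the 3 si-circCpsf6 libraries (red, left) and the 3 si-NC libraries (dark blue, right). Symbols mark replicate numbers and black bars the mean ± SD. Lancl1 and Gsr lie apart by a wide margin, Gpx4 and Gstp1 by a narrow one, and the other panels overlap.

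Lancl1 and Gsr were the 2 members called lower at an adjusted p under 0.05, and no member was called higher. Over all 12974 genes tested, 1.69% were called, 0.786% lower and 0.902% higher (limma on log2(FPKM + 1), Benjamini-Hochberg adjustment). Because both genes were picked for being low, nothing is read from that count. The Gsr call was lost in 4 of the 6 fits that left out a library (without si-circCpsf6 replicate 3 and without each si-NC replicate), and the Lancl1 call without si-NC replicate 3. With all libraries kept, the Gsr call was also lost with the replicate block and with no filter on low values, and Lancl1 was not tested under a filter of 5 FPKM.

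Among the 10 genes, the pair also shared a stretch of sequence. The heptamer GCAGAAT had been picked out earlier from these same fold changes, in the 3' untranslated region (3' UTR) of lower genes. Lancl1 and Gsr were among the genes it was picked on. How many lower genes carry it was not counted here. It was searched as written on the mRNA strand in the longest annotated 3' UTR of each gene (GENCODE M21, GRCm38). Only these 2 of the 10 members held it there, with 1 copy each, and no member held it in its coding sequence or 5' UTR. Because the heptamer was picked on genes that include this pair, and the pair for being low, nothing is read from the match. The sites are shown with their flanks, the heptamer in capitals. The labels do not give the siRNA sequence, so the heptamer was not compared with it. The Lancl1 site is at chr1:67003382-67003410 on the minus strand and the Gsr site at chr8:33697797-33697825 on the plus strand, both GRCm38.
Lancl1: ttttgaaggaaGCAGAATgaaactgtgta
Gsr: atgggaagtctGCAGAATatacgtggtat

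The Lancl1 copy starts at base 82 of a 3' UTR of 2964 bases and stands in all 3 annotated coding transcripts with a stop codon. The Gsr copy starts at base 513 of 868. In Gsr the next base is A, and in Lancl1 it is G. The heptamer is not rare in long 3' UTRs: of other tested genes whose 3' UTR was within 20% of the same length, 17.1% held it at the length of Lancl1 and 6.21% at that of Gsr. Among the members without it, the share at like length was highest for Gclm (24.8%), whose 3' UTR of 4335 bases is the longest of the 10, and 0.0% for Gstp1, whose 3' UTR has 66 bases. Of all 10630 tested genes searched, 10.2% held it.

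**Figure D2:**
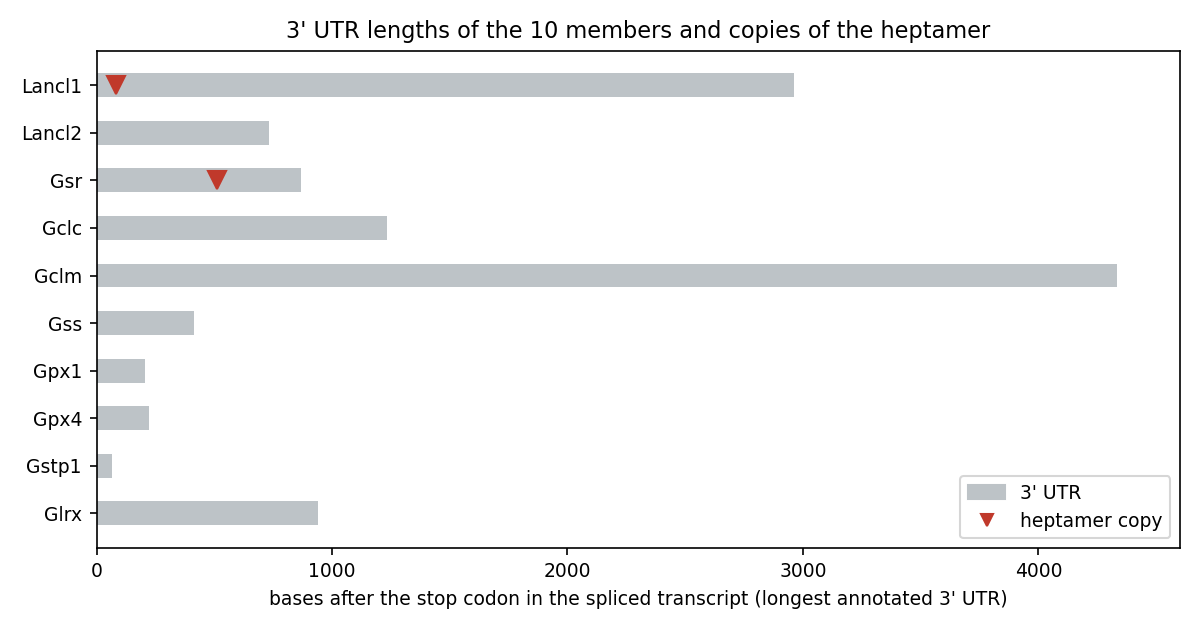
The longest annotated 3' UTR of each of the 10 genes, drawn to scale as a grey bar from the stop codon (x axis, bases), with red triangles at copies of the heptamer. Lancl1 has 1 copy near the start of a long 3' UTR and Gsr has 1 past the middle of a shorter one, while the other members have none.

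Lancl2, the LanC-like paralogue of Lancl1, did not pass the test. It read 6.23, 15.51 and 6.03 FPKM in si-circCpsf6 and 11.17, 14.48 and 15.11 FPKM in si-NC. Replicates 1 and 3 of si-circCpsf6 lay below all si-NC libraries and replicate 2 above them. The difference was -0.62 on the log2 scale with a 95% interval of -1.38 to 0.14 (limma adjusted p = 0.342), and it was -1.02 without si-circCpsf6 replicate 2 and -0.41 without replicate 3. Its spread in si-circCpsf6 was the widest of the members, with an SD of 0.7 on the log2 scale. Vopp1, which overlaps it on the other strand, was at 0.04 FPKM or below.

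Set against Lancl2 in the same library, Lancl1 stood at 0.152, 0.0671 and 0.182 in si-circCpsf6, against 0.485, 0.39 and 0.388 in si-NC. Lancl2 was therefore the more abundant of the pair per length in each of the 6 libraries, and by more in si-circCpsf6. Lancl1 and Lancl2 together came to 7.18, 16.55 and 7.13 FPKM in si-circCpsf6 and 16.59, 20.12 and 20.97 FPKM in si-NC. The sums were barely apart, with 16.55 in si-circCpsf6 replicate 2 next to 16.59 in si-NC replicate 1. Both the ratio and the sum contain Lancl1, which was picked for being low. The third LanC-like gene, Lancl3, was at 0.07 FPKM or below in each library.

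No enzyme of synthesis passed the test. Gclc, the catalytic subunit of glutamate-cysteine ligase, read 11.81, 26.39 and 19.15 FPKM in si-circCpsf6 and 19.56, 27.16 and 20.23 FPKM in si-NC, and the groups overlapped. Its log2 difference was -0.27 with a 95% interval of -0.91 to 0.38 (limma adjusted p = 0.638). Gclm, the modifier subunit that raises the activity of Gclc, read 3.91, 5.99 and 6.02 FPKM in si-circCpsf6, against 5.78, 6.15 and 6.3 FPKM in si-NC. Here only si-circCpsf6 replicate 1 lay outside the si-NC range, and the difference was -0.18 (95% interval -0.58 to 0.22, limma adjusted p = 0.591). Leaving out that library gave 0.03 for Gclc and -0.01 for Gclm. The antisense gene Gm17494 overlaps Gclm and read 5.93 to 12.87 FPKM in si-circCpsf6 and 8.54 to 13.81 FPKM in si-NC, and unless counting used strand, which is not known, its reads and those of Gclm cannot be told apart where they overlap.

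The proportion of catalytic to modifier subunit overlapped between the groups. Gclc over Gclm was 3.02, 4.41 and 3.18 in si-circCpsf6 and 3.38, 4.42 and 3.21 in si-NC. In both groups replicate 2 had the highest ratio.

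Gss, glutathione synthetase, was the only synthesis gene with a positive difference. It read 4.65, 2.36 and 4.57 FPKM in si-circCpsf6 and 2.41, 2.44 and 1.91 FPKM in si-NC. Replicates 1 and 3 of si-circCpsf6 were above all si-NC libraries, and replicate 2 was within their range. The difference of 0.54 (95% interval 0.01 to 1.07) missed the threshold once adjusted over all genes (limma adjusted p = 0.236, unadjusted p = 0.0454). Acss2, an acetyl-CoA synthetase gene that overlaps Gss on the opposite strand, read 12.67, 6.96 and 7.54 FPKM in si-circCpsf6 and 6.06, 4.37 and 5.41 FPKM in si-NC. Its difference was 0.65 (limma adjusted p = 0.174), and whether the pair share reads was not tested.

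Of the genes that spend glutathione, Gpx4 was the most abundant member in both groups. It encodes the selenoenzyme that reduces lipid hydroperoxides in membranes and guards cells against ferroptosis. It read 118.61, 125.94 and 97.51 FPKM in si-circCpsf6 and 82.98, 91.17 and 91.92 FPKM in si-NC, so that each si-circCpsf6 library was above each si-NC library. The difference was small, 0.35 with a 95% interval of 0.02 to 0.69, and missed the threshold (limma adjusted p = 0.229, unadjusted p = 0.0426). Its processed copy Gpx4-ps2 read 29.23, 29.27 and 36.05 FPKM in si-circCpsf6 and 27.16, 32.46 and 26.54 FPKM in si-NC, so the Gpx4 level is uncertain where reads fit both.

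Gpx1, the selenoenzyme that reduces hydrogen peroxide in the cytosol and mitochondria, read 10.03, 13.67 and 14.57 FPKM in si-circCpsf6, against 13.31, 13.28 and 13.89 FPKM in si-NC. Only replicate 1 of si-circCpsf6 was below the si-NC range, and replicate 3 was above it. The difference was -0.09 (95% interval -0.46 to 0.28, limma adjusted p = 0.791), and 0.06 without si-circCpsf6 replicate 1.

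Gstp1, the pi-class transferase that couples glutathione to electrophiles, read 24.12, 31.86 and 27.02 FPKM in si-circCpsf6 and 32.23, 39.17 and 33.56 FPKM in si-NC. The groups were narrowly apart, with 31.86 FPKM in si-circCpsf6 replicate 2 next to 32.23 FPKM in si-NC replicate 1. Its difference was -0.33 (95% interval -0.68 to 0.02, limma adjusted p = 0.265). Near-identical relatives could take some of its reads: Gstp2 was at 4.89 to 13.75 FPKM in si-circCpsf6 and 4.77 to 8.9 FPKM in si-NC, and Gstp-ps at 4.6 to 10.94 FPKM in si-circCpsf6 and 6.99 to 7.91 FPKM in si-NC. Gstp3 was at 0 in all libraries.

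Glrx, the glutaredoxin that removes glutathione from proteins, read 3.06, 1.16 and 2.19 FPKM in si-circCpsf6 and 1.89, 1.99 and 2.15 FPKM in si-NC. The si-circCpsf6 libraries straddled the narrow si-NC range, and the difference was 0.01 (95% interval -0.54 to 0.57, limma adjusted p = 0.983). An interval this wide does not exclude a change of about 0.5 on the log2 scale in either direction.

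In all, 4 of the 10 members had groups that did not overlap, 3 lower (Lancl1, Gsr and Gstp1) and 1 higher (Gpx4), while 26.9% of all tested genes had such groups (14.0% lower and 12.8% higher). The median difference over the 10 was -0.225, against -0.021 over all tested genes. Both figures include the pair that the choice of genes fixed.

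Ordered by mean level, the si-circCpsf6 libraries gave Gpx4 (114 FPKM), Gstp1 (27.7), Gclc (19.1), Gpx1 (12.8), Gsr (9.9), Lancl2 (9.26), Gclm (5.31), Gss (3.86), Glrx (2.14) and Lancl1 (1.03). The si-NC order was Gpx4 (88.7 FPKM), Gstp1 (35.0), Gsr (33.2), Gclc (22.3), Lancl2 (13.6), Gpx1 (13.5), Gclm (6.08), Lancl1 (5.64), Gss (2.25) and Glrx (2.01). Gsr stood at place 5 in si-circCpsf6 and 3 in si-NC, and Lancl1 at 10 and 8. Several neighbours were not separated by their spread: in si-NC the libraries overlapped between Gstp1 and Gsr, between Lancl2 and Gpx1, between Gclm and Lancl1, and between Gss and Glrx. In si-circCpsf6, the range of Gsr overlapped those of Lancl2, Gpx1 and Gclc, so its place there is not settled. Lancl1 lay below Glrx in each si-circCpsf6 library, by the least in replicate 2.

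Ratios within a library put recycling beside synthesis and use without regard to library scaling. Gsr over Gclc was 0.587, 0.454 and 0.562 in si-circCpsf6 and 1.61, 1.36 and 1.53 in si-NC. Gsr was thus below Gclc in each si-circCpsf6 library and above it in each si-NC library. Gpx4 over Gsr was 17.1, 10.5 and 9.05 in si-circCpsf6, against 2.63, 2.47 and 2.96 in si-NC. Gsr over Gpx1 was 0.691, 0.877 and 0.739 in si-circCpsf6 and 2.37, 2.78 and 2.23 in si-NC. Each of these ratios contains Gsr and so repeats its low level. By contrast, Gpx4 over Gpx1 was 11.8, 9.21 and 6.69 in si-circCpsf6 and 6.23, 6.87 and 6.62 in si-NC, with overlapping groups.

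**Figure D3:**
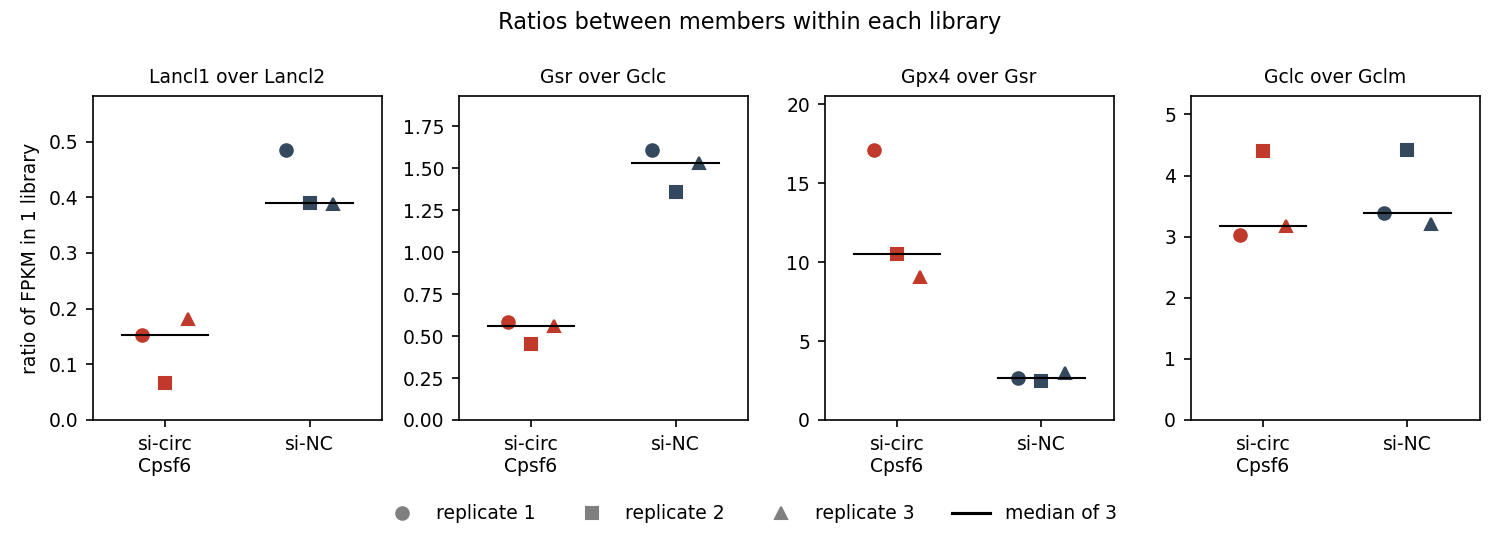
Ratios of FPKM between 2 members within each library (y axis, from 0), with si-circCpsf6 in red on the left, si-NC in dark blue on the right, symbols for replicate numbers and a black line at the median. Lancl1 over Lancl2 and Gsr over Gclc are lower in all 3 si-circCpsf6 libraries and Gpx4 over Gsr is higher, while Gclc over Gclm overlaps (medians 3.18 and 3.38). All but Gclc over Gclm contain Lancl1 or Gsr, which were picked for being low.

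The si-circCpsf6 libraries varied more among themselves than the si-NC libraries in all 10 members, on the log2 scale, and in 61.9% of all tested genes. For Lancl1 that gap was slight, as both SDs round to 0.05. In FPKM the SD was wider in si-NC for Lancl1 (0.22 against 0.0755) and Gsr (3.28 against 2.64). Replicate 1 of si-circCpsf6 had the lowest value of its group in 6 members (Lancl1, Gsr, Gclc, Gclm, Gpx1 and Gstp1) and the highest in Gss and Glrx. Replicate 2 had the highest value in Lancl2, Gsr, Gclc, Gpx4 and Gstp1 and the lowest in Gss and Glrx. In si-NC, replicate 1 was lowest in 7 members and highest in none. Gss and Glrx thus ran opposite to Gclc and Gstp1 across the si-circCpsf6 libraries.

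The rest of the pathway was examined as a list of 65 further genes, of which 41 had a mean of at least 1 FPKM and were tested. None was called in either direction by limma at an adjusted p under 0.05 (smallest adjusted p = 0.12), and 9 had an unadjusted p under 0.05, which is 22.0% of the list against 20.3% of all tested genes. Those 9 genes were all higher in si-circCpsf6, while over all tested genes 1323 were higher and 1310 lower at that level. The list's median difference was 0.118, with 25 genes above 0 and 16 below, and over all tested genes it was -0.021. Groups did not overlap in 9 tested genes of the list that were higher and in 2 that were lower. Over all tested genes, 26.9% had such groups, 12.8% higher and 14.0% lower. By the q-values of the authors' deposited table, Cth, Gstt1 and Idh1 were under 0.05, each higher in si-circCpsf6. The share of all genes under 0.05 by those q-values was not counted, so nothing is read from how many of the list passed. The significance mark in the authors' deposited table falls on Cth, Gstt1 and Mgst3 and not on Idh1. That is 3 of the 41 genes, against 616 of all 12974 tested genes.

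Cysteine supply and glutathione transport had 6 of 7 tested genes above 0, against 47.2% of all tested genes, and 4 of the 6 were at 0.13 or less. Slc3a2, the heavy chain of the cystine importer, read 110.78, 133.65 and 105.61 FPKM in si-circCpsf6 and 96.88, 68.55 and 68.97 FPKM in si-NC (log2 difference 0.58, limma adjusted p = 0.135). Its groups did not overlap, while those of Slc7a11, the light chain, did (0.13, limma adjusted p = 0.81). Cth, which makes cysteine from cystathionine, read 5.24, 25.89 and 22.44 FPKM in si-circCpsf6 and 6.9, 6.5 and 2.43 FPKM in si-NC (1.42, limma adjusted p = 0.222). Replicate 1 of si-circCpsf6 was within the si-NC range and the other two were far above it. The exporter Abcc1 read 8.62 to 9.65 FPKM in si-circCpsf6 and 9.46 to 10.92 FPKM in si-NC (-0.17, limma adjusted p = 0.481), and it is 1 of 2 genes of the list with the heptamer in the 3' UTR, of 40 searched. The other, Cbs, which makes cystathionine, read 0.83 to 1.84 FPKM in si-circCpsf6 and 0.53 to 1.46 FPKM in si-NC.

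Among genes that break glutathione down, the aminopeptidase gene Lap3 read 33.41, 43.06 and 32.38 FPKM in si-circCpsf6 and 27.8, 26.32 and 26.0 FPKM in si-NC (0.42, limma adjusted p = 0.168). Chac2, which cleaves glutathione in the cytosol, read 3.24 to 6.68 FPKM in si-circCpsf6 and 4.81 to 7.43 FPKM in si-NC (-0.31, limma adjusted p = 0.52). Ggt7, of the gamma-glutamyltransferase family, read 23.68 to 29.15 FPKM in si-circCpsf6 and 18.4 to 25.96 FPKM in si-NC (0.21, limma adjusted p = 0.524). Lap3 alone of these 3 had groups that did not overlap.

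Of 14 tested glutathione transferases, 7 were above 0 and 7 below. Groups did not overlap in 4 that were higher and in 2 that were lower. Such groups made up 12.8% (higher) and 14.0% (lower) of all tested genes. The genes named here are those with the smallest unadjusted p, and all are higher. Gstt1, of the theta class, read 2.84, 0.59 and 2.93 FPKM in si-circCpsf6 and 0.44, 0.23 and 0.0 FPKM in si-NC (1.25, limma adjusted p = 0.12). Mgst3, a microsomal transferase, read 3.06, 1.4 and 2.56 FPKM in si-circCpsf6, against 1.12, 0.35 and 1.18 FPKM in si-NC (0.83, limma adjusted p = 0.155). In both genes replicate 2 was the lowest si-circCpsf6 library, as it was for Gss and Glrx. Gsto1, of the omega class, read 4.21 to 5.76 FPKM in si-circCpsf6 and 2.66 to 4.08 FPKM in si-NC (0.52, limma adjusted p = 0.176).

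None of the remaining enzymes passed the test. The glutaredoxin genes Glrx2, Glrx3 and Glrx5 had differences of -0.11, 0.28 and -0.19, with limma adjusted p of 0.769, 0.361 and 0.516. Prdx6, a peroxiredoxin that uses glutathione, read 29.92 to 32.68 FPKM in si-circCpsf6 and 26.1 to 33.26 FPKM in si-NC (0.06, limma adjusted p = 0.828). Of the glyoxalase group, Adh5, which clears formaldehyde bound to glutathione, read 14.55 to 18.23 FPKM in si-circCpsf6 and 10.96 to 12.89 FPKM in si-NC (0.4, limma adjusted p = 0.164). Esd and Hagh, hydrolases of glutathione thioesters, differed by 0.31 and 0.24 (limma adjusted p = 0.357 and 0.4).

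Glutathione reductase draws on NADPH, and 3 of 6 tested genes that supply it were above 0. Idh1, the cytosolic isocitrate dehydrogenase, read 41.17, 29.19 and 59.25 FPKM in si-circCpsf6 and 23.94, 15.32 and 26.71 FPKM in si-NC (0.92, 95% interval 0.25 to 1.6, limma adjusted p = 0.141). Pgd, of the pentose phosphate pathway, read 11.74, 20.07 and 17.13 FPKM in si-circCpsf6 and 19.72, 21.26 and 20.69 FPKM in si-NC (-0.35, limma adjusted p = 0.362). Idh2, the mitochondrial form, differed by 0.24 (limma adjusted p = 0.579). The Idh1 libraries did not overlap between groups, and those of Pgd did.

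**Figure D4:**
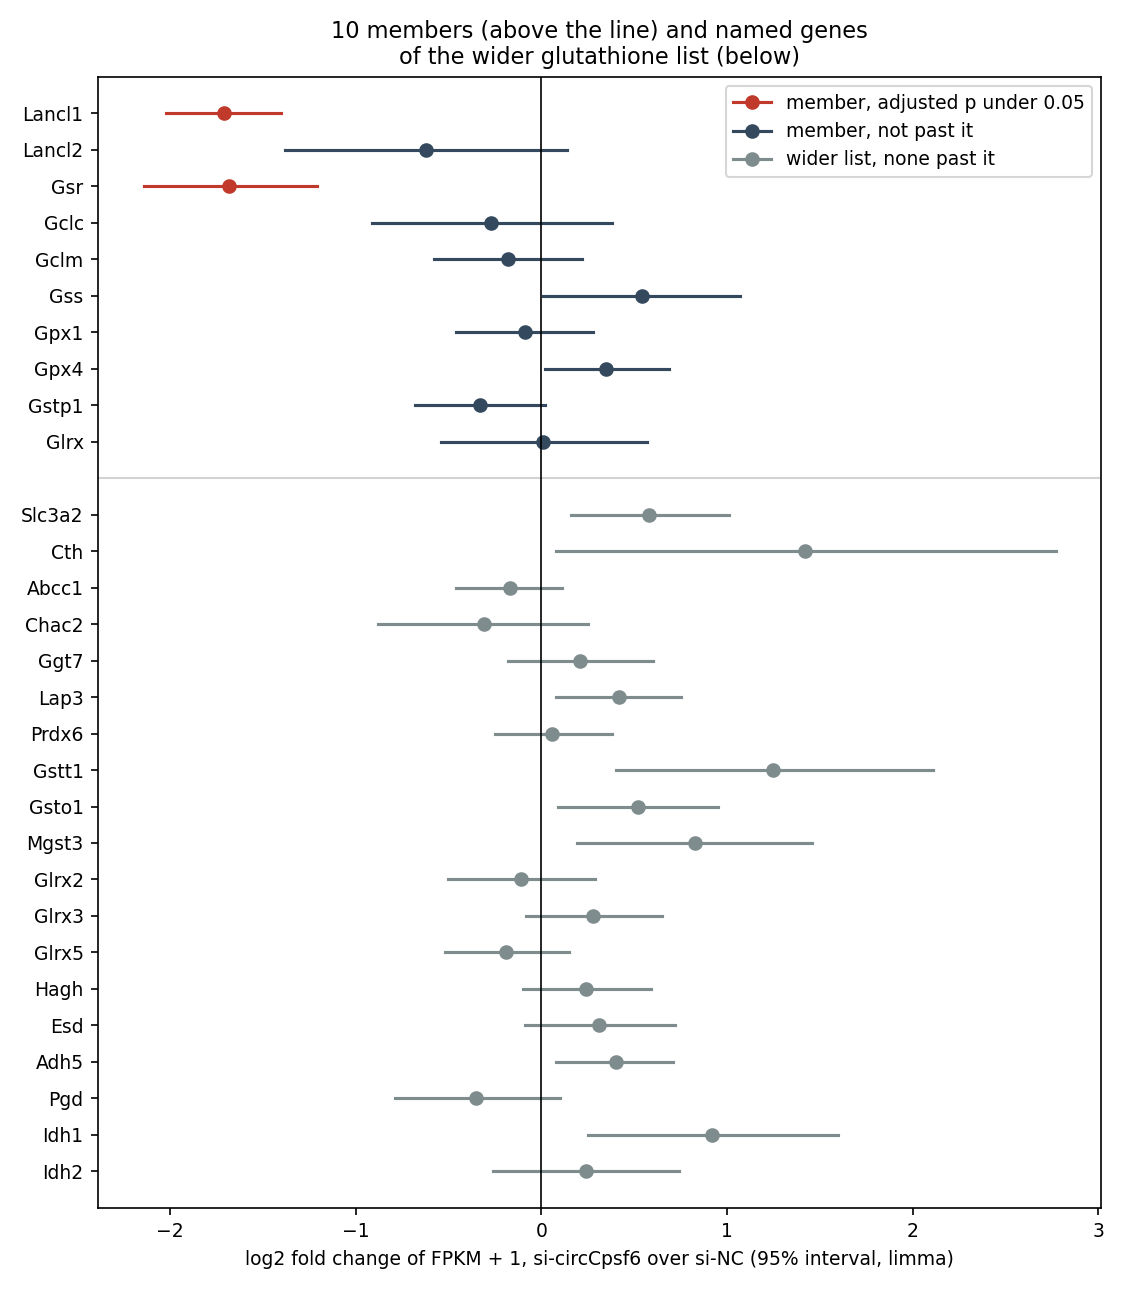
Difference between si-circCpsf6 and si-NC on the log2(FPKM + 1) scale (x axis, point) with its 95% interval from limma (line), for the 10 members above the grey line and the named genes of the wider list below it. Lancl1 (-1.71) and Gsr (-1.68) stand far to the left in red, and no gene of the wider list passed the adjusted threshold.

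By the correlation of log2(FPKM + 1) over the 6 libraries, the genes most like Lancl1 were Chrnb2 (a nicotinic receptor subunit, r = 0.9987), Wnt2 (a secreted ligand, 0.9978) and Ssr3 (a translocon-associated protein, 0.9976). Those most like Gsr were Msl3 (a chromatin protein, 0.9948), Pmm2 (a phosphomannomutase, 0.9943) and Mmut (methylmalonyl-CoA mutase, 0.9941). With 6 points that fall in 2 clusters, r mostly records the gap between groups: 198 genes exceeded 0.95 with Lancl1 and 219 with Gsr. Lancl1 and Gsr had r = 0.9702 with each other. The log2 differences were -0.57, -1.3 and -1.47 for Chrnb2, Wnt2 and Ssr3, and -0.77, -0.79 and -0.31 for Msl3, Pmm2 and Mmut. Chrnb2, Wnt2 and Ssr3 held the heptamer in the 3' UTR, Msl3 and Pmm2 held it in the coding sequence, and Mmut in neither. Since these genes were picked for following Lancl1 or Gsr, and the heptamer on the same fold changes, nothing is read from these matches. Over all genes searched, 10.2% held it in the 3' UTR and 13.6% in the coding sequence. The 3' UTRs of Chrnb2, Wnt2 and Ssr3 have 4667, 874 and 2313 bases.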

How the data were processed

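RNA of Neuro2A cells was extracted with Trizol, per the labels' protocols, which name a small RNA kit for these mRNA libraries. The authors deposited 1 table with an FPKM value per gene and library, rounded to 2 decimals, per the file headers. It also holds, per the file headers, the authors' fold change as a ratio, its log2 value, a p-value and a q-value, from a test that neither headers nor labels name. Bowtie 0.12.2, mm8 and mm9 are listed, with no roles given, per the submitters' processing notes. Whether counting used strand is not given here.

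Groups came from sample titles. The 12974 genes averaging 1 FPKM or more were fitted in limma 3.58.1 (R 4.3.3). The model held group alone, on log2(FPKM + 1), with a variance trend and Benjamini-Hochberg adjustment over all tested genes at 0.05. Adding 1 understates changes of low genes. The labels do not say that replicates were separate cultures, so the spread behind the p-values is between libraries and may be technical. An exact permutation test of 3 against 3 cannot go below 0.1 and was not used. Members and lists were chosen with earlier results of these data known. Named genes are the members, the 3 smallest unadjusted p per sublist, annotated copies and neighbours, Cpsf6 and the 3 genes most alike to Lancl1 and to Gsr. Cbs, Lancl3, Gstp3 and the cell type markers are named beside them. Of the table's gene identifiers, 55144 were found in GENCODE M21 (GRCm38), the source of all positions and sequences. Tables and figures used Python 3.11.15, pandas 2.3.3 and matplotlib 3.10.9.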

Additional observations from a re-analysis of the deposited data

How the results depend on the processing

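With the main settings 2 members were called lower and none higher. The count called lower was 1 with no filter on low values (Gsr lost, limma adjusted p = 0.0802), 1 with a mean of at least 5 FPKM (Lancl1 no longer tested) and 1 with the replicate block (Gsr, limma adjusted p = 0.0503), and 0 to 2 with a library left out. It stayed 2 with a pseudocount of 0.1, no variance trend, median centring, quantile normalization and the authors' deposited q-values. The log2 difference was -1.73 to -1.68 for Lancl1 and -1.82 to -1.46 for Gsr with a library left out (limma adjusted p = 0.0237 to 0.0517 and 0.0274 to 0.0871). Their direction is fixed, because the groups lie apart, and since both genes were picked for being low, these p-values show how the calls move with the settings and support nothing else. None of the other 8 members was called under any of these settings. Of the wider list, 3 genes were higher by the authors' deposited q-values and 0 in each limma fit. The share of all genes passing by those q-values was not counted, so nothing is read from that count. Over all genes, calls higher and lower were 117 and 102, against 6 and 5 with the replicate block, 4 and 9 with no filter, and 1 and 2 (without si-NC replicate 3) to 43 and 44 (without si-circCpsf6 replicate 1) with a library left out.

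Same-numbered libraries had correlations of their deviations from the group means of 0.103, 0.129 and 0.084, and each library correlated best with its own number. For si-circCpsf6 replicate 3 the margin was narrow, with 0.084 for si-NC replicate 3 and 0.0781 for si-NC replicate 1. The match by number is a hint from the data, as the labels do not say what a number shares, so the block was not used. Counts behind FPKM are unknown, which limits what can be said of genes near 1 FPKM, such as Lancl1 in si-circCpsf6, Glrx and Gss.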

Other observations

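Of the 65 further glutathione genes, 24 had a mean under 1 FPKM, which outlines the part of the pathway that these cells hardly transcribe. Gpx5, Gpx6, Gsta1, Gsta2 and Gstp3 were at 0 in all 6 libraries. The peroxidase gene Gpx3 read 1.53, 0.23 and 0.39 FPKM in si-circCpsf6 and 2.13, 0.17 and 0.34 FPKM in si-NC, so that replicate 1 was high in both groups. The gamma-glutamyltransferase gene Ggt1, whose product starts the breakdown of glutathione outside the cell, read 0.34, 0.48 and 0.54 FPKM in si-circCpsf6 and 0.21, 0.45 and 0.13 FPKM in si-NC. Slc7a11, the light chain of the cystine importer, was expressed, at 8.8, 18.26 and 15.75 FPKM in si-circCpsf6 and 12.89, 12.2 and 12.19 FPKM in si-NC (log2 difference 0.13, limma adjusted p = 0.81). Chac1, which degrades glutathione, read 19.28, 55.89 and 42.62 FPKM in si-circCpsf6 and 39.09, 24.44 and 15.98 FPKM in si-NC (0.51, limma adjusted p = 0.549). For Slc7a11 and Chac1, as for Cth, si-circCpsf6 replicate 1 was the lowest of its group and replicate 2 the highest. These genes were named after their values were seen.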
